A study of Homo sapiens with 24 samples.

Results

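Described here are 42 genes of the germ line: germ-cell RNA-binding proteins and transcription factors, the piRNA pathway, and the chromosome axis and recombination machinery of meiosis. They were taken by symbol from a list chosen with earlier results of these data known. The deposited transcript rows of each gene were summed. All 42 had rows, among 76075 genes and unmatched transcripts in the tables. The genes were followed in 2 human acute myeloid leukaemia lines, ELF-153 and UCSD-AML1, given 100 nM decitabine (DAC) with fresh medium on each of 4 days, or left untreated. RNA was taken at 96 h or at 144 h. That makes 8 groups, each with 3 libraries, all from cells grown with 20% serum and GM-CSF at 5 ng/ml in RPMI medium. The groups were ELF-153 with DAC, ELF-153 untreated, UCSD-AML1 with DAC and UCSD-AML1 untreated, at each harvest. The labels describe the libraries as technical triplicates, so a p-value here measures the spread between libraries and not between independent cultures, and each line stands for 1 leukaemia. In bulk RNA, a larger share of cells that express a gene and more RNA per cell cannot be told apart.

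DAC is a cytidine analogue that is incorporated into DNA during replication, where it holds DNA methyltransferases fast; daughter cells then carry less methylation. Many genes of the germ line carry CpG-rich promoters that are methylated in somatic cells and are silent there. piRNAs are small RNAs of germ cells that guide PIWI proteins to transposon transcripts; Tudor-domain proteins, RNA helicases and mitochondrial anchors assemble the PIWI complexes. In meiosis, a cohesin ring with subunits of its own holds sister chromatids, the synaptonemal complex joins homologous chromosomes, and recombinases repair programmed breaks.

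The promoters of 7 start sites are shown first because the results turn on these genes. DAZL has a pair of start sites that the counts could separate. TDRD12, TDRD9 and SYCE1 are the other genes that rose in both lines at both harvests. GTSF1 moved in opposite directions in the 2 lines, and DDX4, the germ-cell helicase gene, stayed silent. Each sequence is the RefSeq window from 250 bases before to 50 bases after the start (GRCh38.p14), 5′ to 3′ on the gene's strand, with CpG dinucleotides in capitals.
DAZL, upstream start, chr3:16605374-16605673, minus strand: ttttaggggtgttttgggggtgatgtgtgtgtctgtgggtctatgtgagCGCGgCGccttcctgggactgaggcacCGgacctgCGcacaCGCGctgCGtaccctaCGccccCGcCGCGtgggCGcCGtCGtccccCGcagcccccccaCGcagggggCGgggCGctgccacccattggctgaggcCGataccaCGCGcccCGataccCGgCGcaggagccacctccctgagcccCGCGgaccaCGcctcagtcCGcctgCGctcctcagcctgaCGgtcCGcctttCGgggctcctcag
DAZL, downstream start, chr3:16604741-16605040, minus strand: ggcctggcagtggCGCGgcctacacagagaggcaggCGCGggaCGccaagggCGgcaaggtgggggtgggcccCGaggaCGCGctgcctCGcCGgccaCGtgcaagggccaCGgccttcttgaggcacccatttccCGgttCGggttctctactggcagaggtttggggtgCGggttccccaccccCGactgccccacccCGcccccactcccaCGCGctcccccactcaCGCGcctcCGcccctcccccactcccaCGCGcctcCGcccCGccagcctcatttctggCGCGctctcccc
TDRD12, chr19:32719517-32719816, plus strand: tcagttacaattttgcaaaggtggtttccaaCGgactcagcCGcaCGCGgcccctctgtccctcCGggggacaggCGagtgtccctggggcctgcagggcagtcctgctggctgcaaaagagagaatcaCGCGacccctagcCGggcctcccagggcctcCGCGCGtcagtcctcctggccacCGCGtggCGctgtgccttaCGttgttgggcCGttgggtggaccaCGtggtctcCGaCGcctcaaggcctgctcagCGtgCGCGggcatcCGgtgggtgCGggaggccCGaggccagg
TDRD9, chr14:103928206-103928505, plus strand: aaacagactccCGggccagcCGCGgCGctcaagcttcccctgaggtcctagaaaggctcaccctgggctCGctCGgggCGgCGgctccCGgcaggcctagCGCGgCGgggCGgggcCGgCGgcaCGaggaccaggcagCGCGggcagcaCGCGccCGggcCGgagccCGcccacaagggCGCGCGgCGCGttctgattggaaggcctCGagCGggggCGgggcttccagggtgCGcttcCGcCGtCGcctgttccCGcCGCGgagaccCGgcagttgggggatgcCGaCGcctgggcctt
SYCE1, chr10:133565534-133565833, minus strand: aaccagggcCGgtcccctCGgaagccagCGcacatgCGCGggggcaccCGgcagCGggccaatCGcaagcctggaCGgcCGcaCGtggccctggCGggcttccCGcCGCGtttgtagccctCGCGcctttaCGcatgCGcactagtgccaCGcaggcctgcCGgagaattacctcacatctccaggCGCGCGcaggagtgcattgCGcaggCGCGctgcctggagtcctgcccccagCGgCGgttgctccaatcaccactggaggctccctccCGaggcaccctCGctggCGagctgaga
GTSF1, chr12:54473553-54473852, minus strand: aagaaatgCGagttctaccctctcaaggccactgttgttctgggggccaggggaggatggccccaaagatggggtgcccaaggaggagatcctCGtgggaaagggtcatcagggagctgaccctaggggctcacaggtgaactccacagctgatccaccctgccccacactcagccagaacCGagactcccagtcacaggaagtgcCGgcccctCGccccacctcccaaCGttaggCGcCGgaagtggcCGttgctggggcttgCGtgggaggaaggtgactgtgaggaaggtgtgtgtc
DDX4, chr5:55766635-55766934, plus strand: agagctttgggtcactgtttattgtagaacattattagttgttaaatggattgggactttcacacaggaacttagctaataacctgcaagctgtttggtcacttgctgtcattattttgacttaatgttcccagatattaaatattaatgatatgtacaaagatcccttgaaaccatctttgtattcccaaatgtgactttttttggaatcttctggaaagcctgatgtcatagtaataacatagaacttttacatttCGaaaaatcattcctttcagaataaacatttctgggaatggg

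The upstream DAZL window held 33 CpGs and the downstream one 29, against 26 for TDRD12, 41 for TDRD9 and 32 for the SYCE1 window shown. A second SYCE1 window, at the start of ENST00000368517, held 27 CpGs, GCGGGA 2 times and no CACGTG. The windows shown of GTSF1, with 10, and DDX4, with 1, were CpG-poor. The DDX4 window lies at the start of ENST00000511853, 1 of the 14 transcripts of the gene. No window was given for another DDX4 start, so the count does not describe the gene's other promoters. RefSeq gave 46 windows for 35 of the 42 genes, with a median of 26 CpGs, against 14 over all 35116 windows of the table. The median was 27 CpGs over 16 windows of 13 genes with 3 reads or fewer in every group, and 27 over 12 windows of 8 genes called higher with DAC in ELF-153 at both harvests. The hexamer CACGTG, an E-box bound by MGA and MAX, was in 26.1% of the windows of these genes and 7.26% of all windows. The hexamer GCGGGA, the core of the E2F site, searched like the first on both strands, was in 54.3% and 26.9%. Among the 12 windows of risen genes 33.3% held CACGTG and 66.7% held GCGGGA; among the 16 windows of silent genes 12.5% and 50% did. These are counts of letters and say nothing of what binds there. The windows shown of TDRD12, SYCE1 and the downstream start of DAZL held both hexamers once. The upstream DAZL window, whose first exon carried almost all DAZL reads, held neither. Each hexamer itself contains a CpG.

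Values are scaled reads: reads assigned to transcripts divided by a size factor per library, summed per gene. A gene was tested where it reached 10 scaled reads in at least 3 of the 12 libraries of its harvest. Log2 changes are DAC minus untreated on log2(scaled reads + 1), with their standard error (SE), and a gene rose or fell only where the adjusted p of limma over all rows of the harvest lay below 0.05. Where the lower group held no read, the fold is given as a lower bound against a floor of 3 reads over the group; where it held 1 to 3 reads, as a ratio of scaled reads with a 95% interval for counting error. Bounds and intervals cover counting error only. Of the 42 genes, 16 were tested at each harvest and 17 at one or both: MOV10L1 only at 96 h, STAG3 only at 144 h. At each harvest 7 of the 16 passed the filter through DAC libraries alone and therefore had to be higher there, so the counts below describe these genes and are no test of the set.

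Tested genes were mostly called higher with DAC in ELF-153, and fewer were in UCSD-AML1. PIWIL4 and MAEL at 96 h, and PIWIL2, PIWIL4, MAEL and STAG3 at 144 h, passed the filter only through DAC libraries of ELF-153, and no gene did so only through those of UCSD-AML1, so the filter itself favours ELF-153 and the counts and medians do not compare the lines. In ELF-153 at 96 h, 13 of the 16 tested genes rose and 3 fell, where 20.1% of all 18799 rows tested were called higher and 12.7% lower. In ELF-153 at 144 h, 12 rose and 3 fell (20.4% and 18% of 18293 rows). In UCSD-AML1 at 96 h, 7 rose and 1 fell (19.7% and 19.6% of all rows), and at 144 h, 6 rose and 4 fell (20% and 26.2%). DAZL, TDRD9, TDRD12 and SYCE1 rose in both lines at both harvests. Another 7 genes rose at both harvests in ELF-153: PIWIL2, PIWIL4, MAEL, TDRKH, GTSF1, REC8 and TEX19. PLD6, SYCE2 and DMC1 fell in ELF-153 at both harvests, and GTSF1 fell in UCSD-AML1 at both. The median fitted log2 change of the 16 tested genes was 3.48 in ELF-153 and 1.06 in UCSD-AML1 at 96 h, and 3.42 and 0.61 at 144 h. With genes of 3 reads or fewer in a group set to their bound or ratio it was 3.80 in ELF-153 and 1.43 in UCSD-AML1 at 96 h, and 3.89 in ELF-153 and 0.67 in UCSD-AML1 at 144 h. Over all rows tested the median was 0.16 in ELF-153 and −0.02 in UCSD-AML1 at 96 h, and 0.11 and −0.12 at 144 h.

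**Figure D1:**
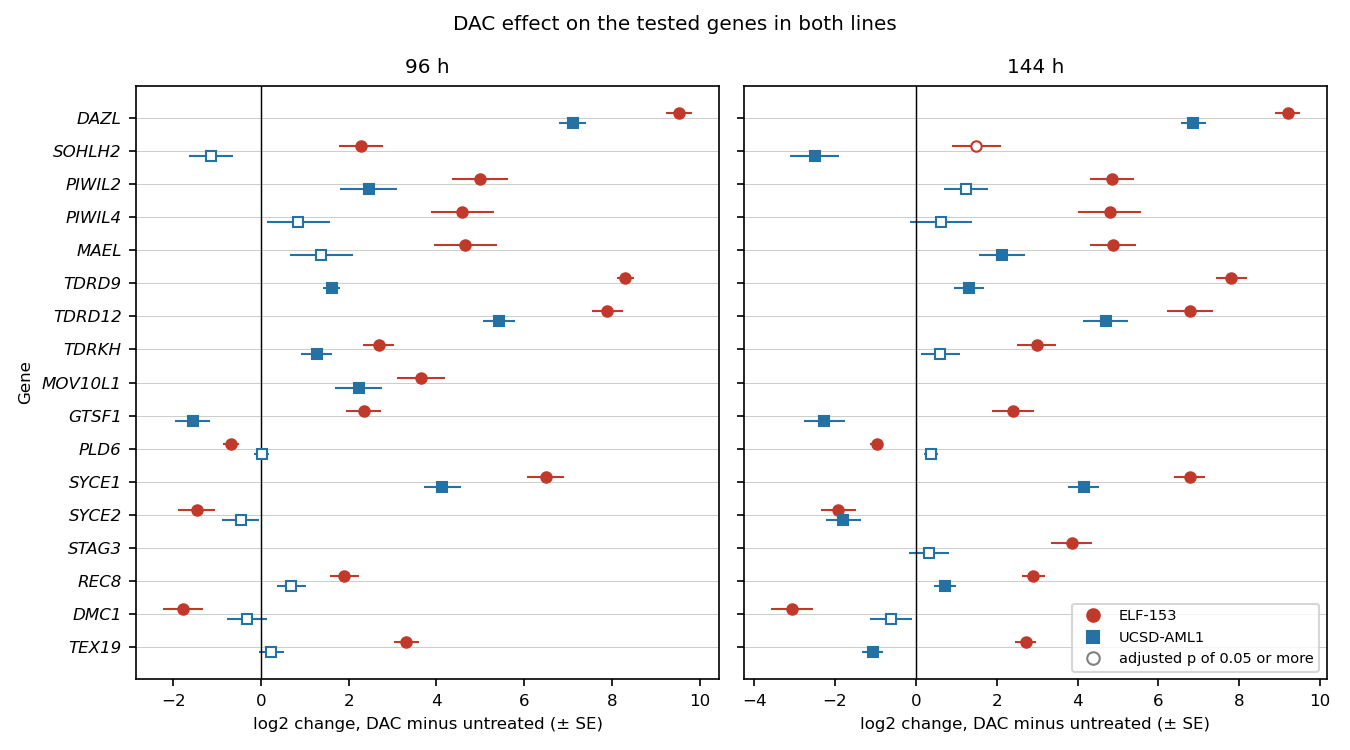
Log2 change with DAC (x axis, DAC minus untreated on log2(scaled reads + 1), bars ± SE) for each tested gene (y axis), at 96 h in the left and 144 h in the right panel; red circles are ELF-153, blue squares UCSD-AML1, and open symbols had an adjusted p of 0.05 or more. ELF-153 lies to the right of UCSD-AML1 for most genes, with DAZL at 9.53 and 7.10 at 96 h; values of genes with 3 reads or fewer in a group depend on the pseudocount of 1.

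The difference between the 2 lines in the DAC effect was tested itself, as the signed log2 change in ELF-153 minus that in UCSD-AML1. A smaller change means a lower signed value and not a weaker effect: PLD6 and DMC1, so called, fell in ELF-153. At 96 h the change was larger in ELF-153 for 9 of the 16 tested genes and smaller for 1 (16.4% and 8.62% of all rows), and at 144 h larger for 12 and smaller for 2 (19.4% and 10.2%). The larger changes include PIWIL4 and MAEL at 96 h, and PIWIL2, PIWIL4, MAEL and STAG3 at 144 h. These passed the filter only through DAC libraries of ELF-153, which favours a larger change there, so the counts do not compare the lines. On recovered reads edgeR called 4 and 1 of the 16 genes at 96 h and 6 and 1 at 144 h, and DESeq2 4 and 1, and 7 and 1. The call of a larger change was lost with both tools for DAZL, MAEL, PIWIL4, SYCE1 and TDRD12 at 96 h and for DAZL, MAEL, PIWIL2, STAG3 and SYCE1 at 144 h, and for PIWIL4 at 144 h with edgeR. Where both untreated groups held no read, as for DAZL, neither fold has a finite estimate from counts, so these tools cannot decide there. Called by limma, edgeR and DESeq2 at both harvests were SOHLH2, TDRD9, GTSF1 and TEX19 as larger in ELF-153, and PLD6, which fell there, as smaller.

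**Figure D2:**
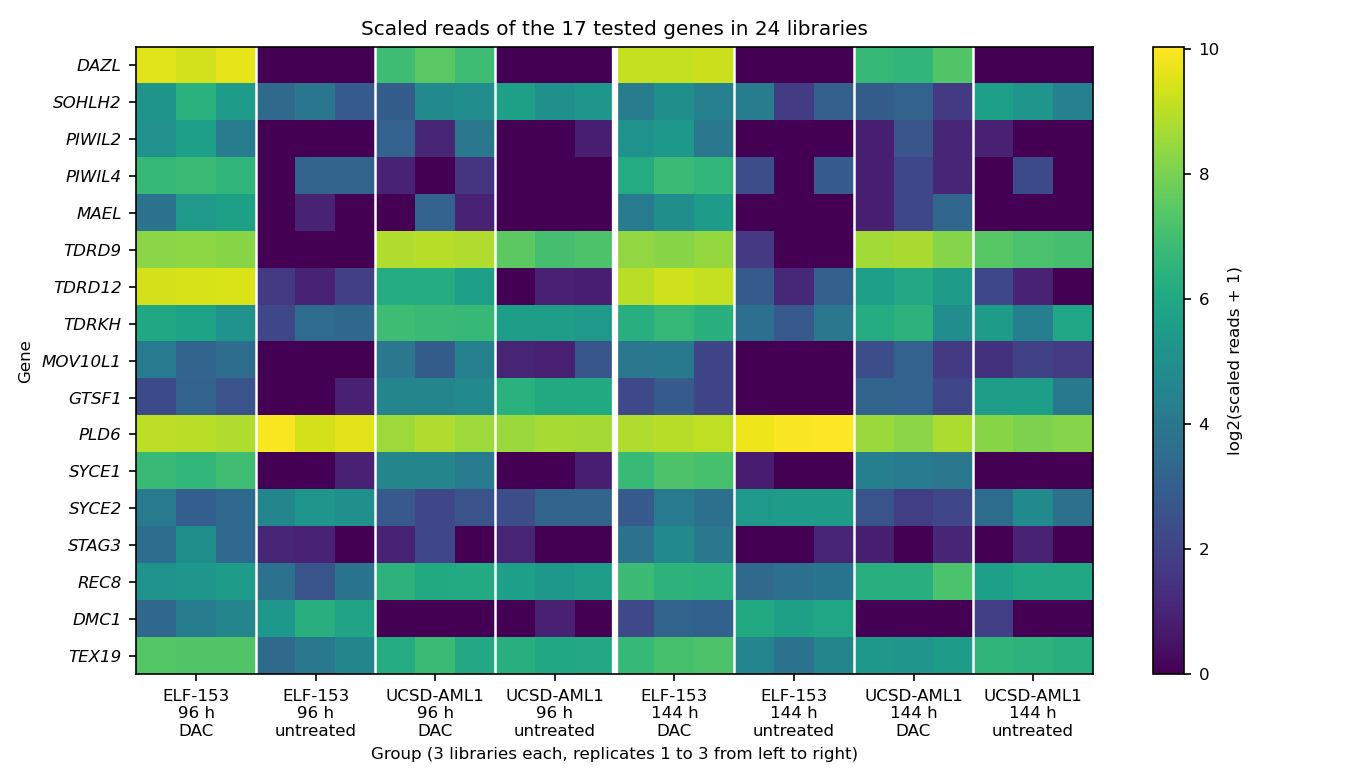
Scaled reads of the 17 tested genes (rows) in each of the 24 libraries (columns, 3 per group, DAC left of untreated and ELF-153 left of UCSD-AML1 within each harvest), as log2(scaled reads + 1) in colour. DAZL is dark in all 12 untreated libraries and bright in all 12 DAC libraries; PLD6 is bright in all 24.

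Among the germ-cell RNA-binding proteins and transcription factors, 2 of 6 genes were tested. DAZL, which binds germ-cell mRNAs and controls their translation, had no read in any of the 12 untreated libraries. At 96 h it had 756, 654 and 814 scaled reads in ELF-153 with DAC and 0 in each untreated library. UCSD-AML1 had 120.0, 176 and 120.4 with DAC and 0 untreated. The groups did not overlap in either line. DAZL was at least 730-fold higher with DAC in ELF-153 (adjusted p = 7.36e-11) and at least 152-fold higher in UCSD-AML1 (adjusted p = 3.21e-09). At 144 h, DAC libraries of ELF-153 held 567, 573 and 617 and those of UCSD-AML1 101, 97.1 and 158, with untreated libraries again at 0. The gene was at least 615-fold higher in ELF-153 (adjusted p = 4.84e-10) and at least 116-fold higher in UCSD-AML1 (adjusted p = 1.14e-08). All DAC libraries of ELF-153 lay above all those of UCSD-AML1, and the log2 change was larger in ELF-153 by 2.43 ± 0.43 at 96 h (adjusted p = 0.00171) and by 2.33 ± 0.44 at 144 h (adjusted p = 0.00285). On recovered reads with DESeq2 this difference was 2.08 at 96 h (adjusted p = 0.388) and 2.14 at 144 h (adjusted p = 0.349), and did not pass. With 0 untreated reads in both lines, neither fold has a finite estimate from counts, so that test cannot decide.

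The DAZL reads also told its start sites apart. The coding transcripts ENST00000399444 and ENST00000250863 share 10 exons and each has 1 of its own, the first: 297 bases for ENST00000399444, whose start lies 709 bases upstream, and 351 bases for ENST00000250863. In ELF-153 with DAC at 96 h the upstream transcript held 786, 738 and 821 reads and the downstream one 12, 11 and 11. In UCSD-AML1 with DAC at 96 h the upstream transcript held 118, 152 and 123 reads and the downstream one 4, 5 and 1. The upstream first exon carried 98.6% of the reads of the pair in ELF-153 and 97.5% in UCSD-AML1 at 96 h, and 98.3% and 100% at 144 h. Both lines thus gave reads almost wholly from the upstream start, at unlike totals but like shares, although the downstream exon is the longer. These reads are the ones counted on a single transcript; reads on shared exons are barely represented in the tables.

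**Figure D3:**
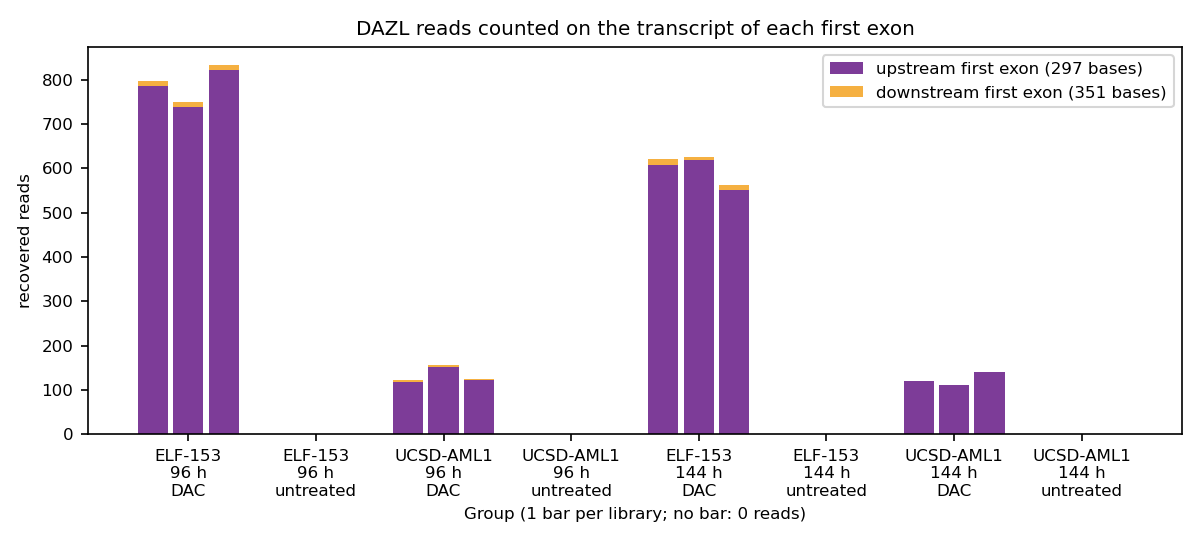
Recovered DAZL reads (y axis) in each of the 24 libraries (x axis, 1 bar per library, grouped by line, harvest and treatment), split into the transcript with the upstream first exon (297 bases, purple) and the one with the downstream first exon (351 bases, orange). Only DAC libraries have bars, and the orange part is at most 12 reads.

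SOHLH2, a helix-loop-helix transcription factor of early germ cells, was present without DAC in both lines, rose in ELF-153 at 96 h and fell in UCSD-AML1 at 144 h. In ELF-153 at 96 h it had 36, 84.6 and 44 scaled reads with DAC and 10.1, 14.3 and 6.38 untreated, a rise of 2.28 ± 0.50 (SE, adjusted p = 0.00326). In UCSD-AML1 at 96 h it had 6.89, 25.9 and 29.1 with DAC and 51.4, 32.1 and 37.8 untreated, with no overlap but an adjusted p of 0.0882. At 144 h ELF-153 held 17.4, 31.2 and 19.8 with DAC and 18.1, 2.37 and 7.47 untreated, groups that overlap (adjusted p = 0.0694). UCSD-AML1 held 6.72, 7.87 and 2.25 with DAC at 144 h and 49.5, 36.4 and 20.3 untreated, and fell by 2.50 ± 0.61 on the log2 scale (adjusted p = 0.00508). The difference between the lines was 3.41 ± 0.71 at 96 h (adjusted p = 0.00448), 2.79 without UCSD-AML1 DAC replicate 1, and 4.00 ± 0.86 at 144 h (adjusted p = 0.00608), 4.61 without ELF-153 untreated replicate 1 and 3.36 without its replicate 2. It passed the test in each of these fits. The share of mitochondrial ribosomal RNA was higher with DAC in ELF-153, 43.4 ± 6.25% against 25.2 ± 11.1% untreated at 96 h (SD, n = 3), and with that share as a covariate the rise at 96 h was 1.68 (adjusted p = 0.140). The other 4 genes were not tested. BOLL, of the DAZL family, and DDX4, the VASA helicase, had at most 2 reads in any library. SOHLH1, the partner of SOHLH2, had at most 5. NANOS3, which protects primordial germ cells, had 8, 9 and 6 reads in ELF-153 with DAC at 96 h and 4, 1 and 1 untreated.

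In the piRNA pathway, 9 of 15 genes were tested at 96 h and 8 at 144 h. In ELF-153, 8 rose and 1 fell at 96 h (20.1% and 12.7% of all rows), and 7 rose and 1 fell at 144 h (20.4% and 18%). In UCSD-AML1, 5 rose and 1 fell (19.7% and 19.6%), then 3 rose and 1 fell (20% and 26.2%). PIWIL2, PIWIL4, MAEL and TDRD12 at both harvests, and MOV10L1 at 96 h, passed the filter only with DAC libraries. They had to be higher there, so these counts are no test of the pathway. Of the PIWI genes themselves, PIWIL2 and PIWIL4 rose in ELF-153 at both harvests. PIWIL2, an Argonaute protein of male germ cells, had 33.2, 49.7 and 17.6 scaled reads in ELF-153 with DAC at 96 h and 0 in each untreated library, at least 33.7-fold more (adjusted p = 4.55e-05). In UCSD-AML1 it had 7.87, 1.12 and 14.6 with DAC and 0, 0 and 0.788 untreated, a ratio of 27.1 with an interval of 4.42 to 1114 (adjusted p = 0.00832); 1 of these DAC libraries held close to the untreated level. The log2 change there was 2.45, 3.28 without DAC replicate 2 and 1.84 without DAC replicate 3, and with the mitochondrial covariate the adjusted p was 0.0546. At 144 h, PIWIL2 had 34.7, 40.4 and 15.4 in ELF-153 with DAC and 0 untreated, at least 32.7-fold more (adjusted p = 1.37e-05). UCSD-AML1 at 144 h held 0.840, 5.25 and 1.13 with DAC and 0.884, 0 and 0 untreated, and did not pass (adjusted p = 0.0792).

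PIWIL4, whose mouse counterpart directs DNA methylation of transposons, was high only in ELF-153 libraries with DAC. At 96 h these held 106, 113 and 95.9 scaled reads, against 0, 8.19 and 8.20 in untreated ELF-153, a rise of 4.59 ± 0.72 (SE, adjusted p = 0.000251). In UCSD-AML1 it had 0.984, 0 and 1.94 with DAC and 0 untreated. At 144 h ELF-153 held 72.2, 113 and 99.9 with DAC and 4.36, 0 and 6.41 untreated, a rise of 4.79 ± 0.78 (adjusted p = 0.000309). The rise was 3.52 without untreated replicate 1 at 96 h and 3.91 without untreated replicate 2 at 144 h, still passing in both. With the mitochondrial covariate the change at 96 h was 2.32 (adjusted p = 0.0726). UCSD-AML1 at 144 h held 0.840, 3.50 and 1.13 with DAC and 0, 3.83 and 0 untreated. The lines differed by 3.74 ± 1.02 at 96 h (adjusted p = 0.0177; 2.68 without ELF-153 untreated replicate 1) and by 4.17 ± 1.10 at 144 h (adjusted p = 0.0155; 3.41 without UCSD-AML1 untreated replicate 2 and 3.28 without ELF-153 untreated replicate 2). The first was 0.93 with edgeR (adjusted p = 0.744) and 1.44 with DESeq2 (adjusted p = 0.543), and the second 3.95 with edgeR (adjusted p = 0.0732). With a pseudocount of 0.5 the first had an adjusted p of 0.0591, and with the mitochondrial covariate the second one of 0.105. PIWIL1 had at most 3 reads in any library.

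MAEL, a piRNA factor named after the fly gene maelstrom, had 13.3, 41.9 and 51.9 scaled reads in ELF-153 with DAC at 96 h and 0, 1.02 and 0 untreated, a ratio of 106 with an interval of 18.6 to 4214 (adjusted p = 0.000220). At 144 h ELF-153 held 16.5, 31.2 and 43.9 with DAC and 0 untreated, at least 31.3-fold more (adjusted p = 1.89e-05). In UCSD-AML1 it had 0, 7.87 and 0.971 with DAC and 0 untreated at 96 h (adjusted p = 0.146), and 0.840, 3.50 and 9.01 with DAC and 0 untreated at 144 h, at least 4.05-fold more (adjusted p = 0.00833). The fitted change of 2.12 there was 2.75 without DAC replicate 1 and 1.52 without DAC replicate 3, and it missed the threshold with a pseudocount of 8 (adjusted p = 0.101). The larger change in ELF-153 passed at 96 h (3.28 ± 1.02, adjusted p = 0.0313) and at 144 h (2.75 ± 0.80, adjusted p = 0.0234). It was lost at 96 h without any 1 of 9 of the 12 libraries, with a lowest value of 2.59 without UCSD-AML1 DAC replicate 1 (adjusted p = 0.0794), and with a pseudocount of 0.5 (adjusted p = 0.0582); without UCSD-AML1 DAC replicate 2 it was 4.16. At 144 h it was lost without any 1 of 5 libraries, with adjusted p up to 0.0540, and was 2.13 without UCSD-AML1 DAC replicate 1 and 3.35 without its replicate 3. On recovered reads it was 1.69 with edgeR (adjusted p = 0.859) and 2.32 with DESeq2 (adjusted p = 0.569) at 96 h, and missed the threshold at 144 h too.

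The Tudor-domain helicase genes TDRD9 and TDRD12 rose in both lines at both harvests. TDRD9 was already present in untreated UCSD-AML1 and absent or nearly so in untreated ELF-153. In ELF-153 at 96 h it had 315, 322 and 308 scaled reads with DAC and 0 in each untreated library, at least 312-fold more (adjusted p = 9.17e-12). UCSD-AML1 held 458, 499 and 459 with DAC and 181, 135 and 148 untreated, a rise of 1.61 ± 0.20 (SE, adjusted p = 2.47e-05). At 144 h ELF-153 held 335, 300.0 and 351 with DAC and 2.18, 0 and 0 untreated, a ratio of 345 with an interval of 118 to 1676 (adjusted p = 8.66e-09), and UCSD-AML1 396, 432 and 299 with DAC and 173, 141 and 135 untreated, a rise of 1.31 ± 0.37 (adjusted p = 0.0117). With DAC the 2 lines were closer to each other than without it. The change was larger in ELF-153 by 6.69 ± 0.28 at 96 h (adjusted p = 6.61e-09) and by 6.49 ± 0.53 at 144 h (adjusted p = 4.95e-06). Of its reads, 98.2% to 98.7% fell on 1 coding transcript, ENST00000409874, in every group above 3 reads.

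TDRD12 was near 0 without DAC in both lines, and with DAC every ELF-153 library lay above every UCSD-AML1 library. At 96 h it had 674, 683 and 712 scaled reads in ELF-153 with DAC and 2.24, 1.02 and 2.73 untreated, a rise of 7.89 ± 0.36 (SE, adjusted p = 1.88e-09). UCSD-AML1 had 71.8, 73.1 and 49.5 with DAC and 0, 0.917 and 0.788 untreated, a ratio of 107 with an interval of 29.1 to 887 (adjusted p = 1.05e-07). At 144 h the rise was 6.78 ± 0.56 in ELF-153 (511, 639 and 564 with DAC, 6.53, 1.18 and 7.47 untreated, adjusted p = 9.11e-07) and 6.16 without untreated replicate 2. In UCSD-AML1 it was 4.70 ± 0.56 (50.4, 64.7 and 45.0 with DAC, 3.54, 0.959 and 0 untreated, adjusted p = 2.87e-05). The change was larger in ELF-153 by 2.47 ± 0.51 at 96 h (adjusted p = 0.00417) and by 2.08 ± 0.79 at 144 h, which missed the threshold (adjusted p = 0.0625). The difference at 96 h was lost with edgeR (1.69, adjusted p = 0.417) and DESeq2 (1.49, adjusted p = 0.392).

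TDRKH, a Tudor protein of the mitochondrial surface that is needed in mice to trim piRNA ends, was present in both lines. In ELF-153 it had 64.4, 55.8 and 34.2 scaled reads with DAC at 96 h and 3.36, 10.2 and 9.11 untreated, a rise of 2.68 ± 0.35 (SE, adjusted p = 5.55e-05). UCSD-AML1 had 121, 108 and 106 with DAC and 48.2, 47.7 and 41.8 untreated, a rise of 1.26 ± 0.35 (adjusted p = 0.0118), which was 0.69 with the mitochondrial covariate (adjusted p = 0.176). At 144 h ELF-153 had 80.4, 101 and 82.4 with DAC and 11.6, 5.92 and 14.9 untreated, a rise of 2.99 ± 0.48 (adjusted p = 0.000298). UCSD-AML1 at 144 h had 73.1, 89.2 and 29.3 with DAC and 45.1, 19.2 and 60.8 untreated, which overlap (adjusted p = 0.323). The lines differed in change at 144 h by 2.38 ± 0.68 (adjusted p = 0.0218), a call lost without UCSD-AML1 untreated replicate 1 (2.25, adjusted p = 0.0541), ELF-153 untreated replicate 2 (2.04, adjusted p = 0.0555) or ELF-153 DAC replicate 2 (2.28, adjusted p = 0.0549), and with the mitochondrial covariate (adjusted p = 0.144).

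MOV10L1, the helicase that brings piRNA precursors to PIWI proteins in mice, was tested at 96 h. It had 16.1, 8.72 and 10.8 scaled reads in ELF-153 with DAC and 0 untreated, at least 11.7-fold more (adjusted p = 0.000164). UCSD-AML1 had 14.8, 6.74 and 20.4 with DAC and 1.05, 0.917 and 5.52 untreated, a rise of 2.22 ± 0.54 (SE, adjusted p = 0.00530). At 144 h it was under the filter, with 16, 17 and 3 reads in ELF-153 with DAC and 0 untreated, and 5, 9 and 2 in UCSD-AML1 with DAC and 2, 3 and 2 untreated.

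GTSF1, a small zinc-finger partner of PIWI proteins, fell in UCSD-AML1 and rose in ELF-153. In UCSD-AML1 it had 22.6, 22.5 and 27.2 scaled reads with DAC at 96 h and 84.9, 66.9 and 67.8 untreated, and fell by 1.56 ± 0.40 on the log2 scale (SE, adjusted p = 0.00733). At 144 h it had 8.40, 7.87 and 3.38 with DAC and 47.7, 48.9 and 15.5 untreated, and fell by 2.26 ± 0.51 (adjusted p = 0.00316). In ELF-153, where untreated libraries held 0, 0 and 0.911 at 96 h and 0 at 144 h, DAC libraries held 3.79, 7.85 and 4.89, then 3.66, 6.42 and 3.29. Those rises were a ratio of 16.6 with an interval of 2.61 to 690 (adjusted p = 0.000520) and at least 4.76-fold (adjusted p = 0.00229). They rest on 18 and 14 reads. The first missed the threshold without retained-intron and processed transcripts (0.94, adjusted p = 0.174), the second with a pseudocount of 8 (0.63, adjusted p = 0.117) and with the mitochondrial covariate (adjusted p = 0.130). The lines differed by 3.90 ± 0.57 at 96 h (adjusted p = 0.000416) and 4.66 ± 0.72 at 144 h (adjusted p = 0.000772). Even with DAC, ELF-153 stayed below DAC-treated UCSD-AML1 at 96 h.

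PLD6, a mitochondrial protein related to the fly nuclease Zucchini that begins piRNA processing, was well expressed with and without DAC in both lines and fell in ELF-153. In ELF-153 it had 518, 509 and 458 scaled reads with DAC at 96 h and 986, 674 and 759 untreated, and fell by 0.69 ± 0.17 on the log2 scale (SE, adjusted p = 0.00768). The libraries at 144 h had 456, 502 and 533 with DAC and 872, 1007 and 1049.5 untreated, and fell by 0.97 ± 0.17 (adjusted p = 0.000538). UCSD-AML1 had 383, 456 and 379 with DAC at 96 h and 369, 426 and 406 untreated (adjusted p = 0.957), and at 144 h 365, 316 and 446 with DAC and 303, 262 and 293 untreated, no overlap but an adjusted p of 0.0817. With TMM, edgeR, DESeq2 or the mitochondrial covariate that last change was called higher. The fall at 96 h in ELF-153 was 0.32 with the mitochondrial covariate, which did not pass (adjusted p = 0.325). The difference between lines was −1.35 ± 0.24 at 144 h (adjusted p = 0.00189) and −0.70 ± 0.24 at 96 h (adjusted p = 0.0495), and at 96 h it was lost without any 1 of 11 of the 12 libraries, with adjusted p up to 0.113, with a filter of 1 (0.0677) and without retained-intron and processed transcripts (0.0571). Of the other 6 genes, TDRD5 had no read in any library, ASZ1 and RNF17 had 1 each, and TDRD1, TDRD6 and PIWIL1 had at most 6, 4 and 3 in any library.

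**Figure D4:**
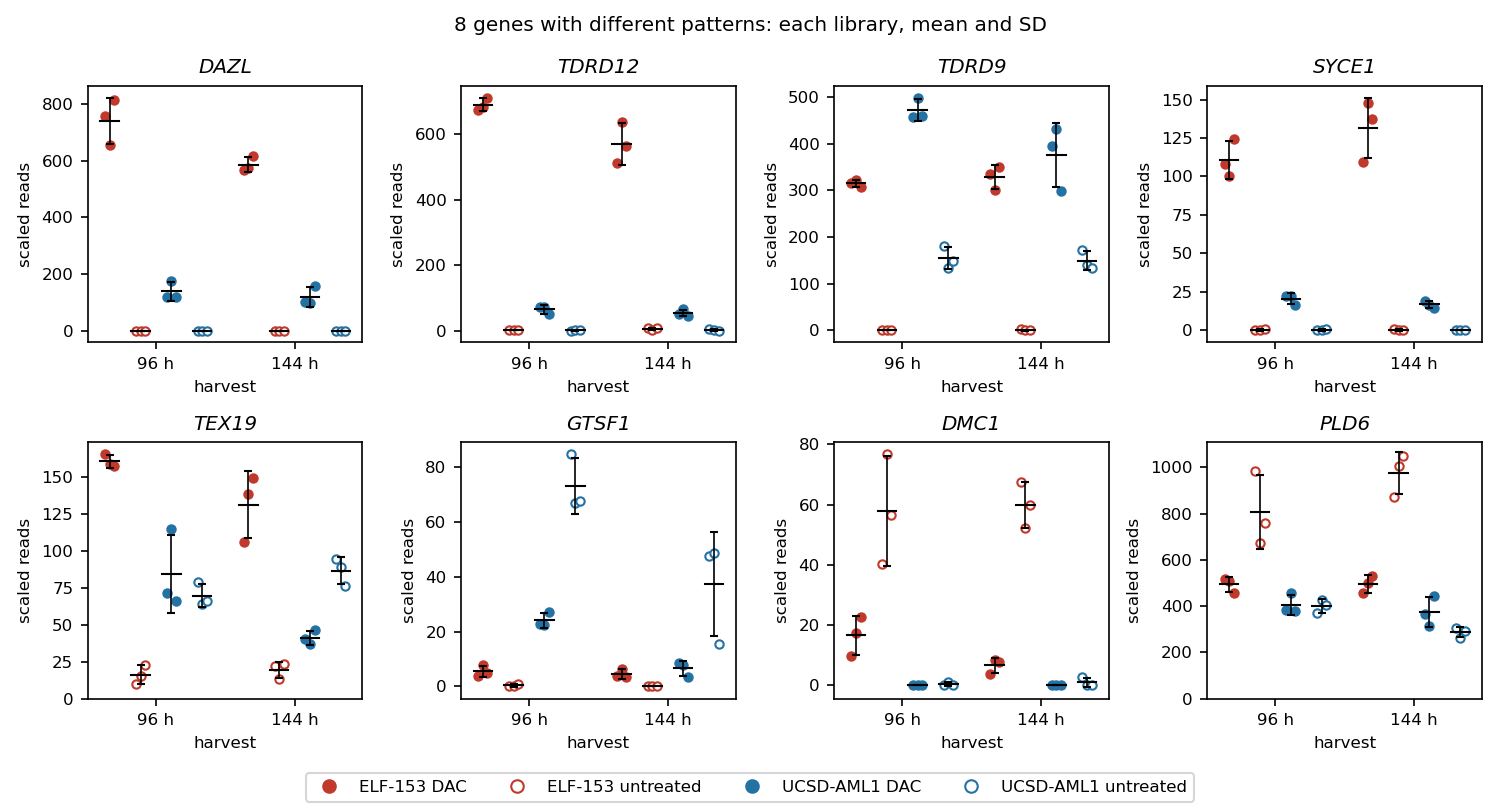
Scaled reads (y axes, linear, each from its own scale) of 8 genes in every library at 96 h and 144 h (x axes); red is ELF-153, blue UCSD-AML1, filled DAC, open untreated, black lines the mean with bars of ± SD (n = 3). DAZL, TDRD12 and SYCE1 appear with DAC, TDRD9 appears in ELF-153 and climbs in UCSD-AML1, GTSF1 falls in UCSD-AML1, where untreated libraries held 66.9 to 84.9 at 96 h, and DMC1 and PLD6 fall in ELF-153.

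Among the 11 genes of the synaptonemal complex, the axis and meiotic cohesin, 3 were tested at 96 h and 4 at 144 h. SYCE1, of the central element, was silent without DAC and rose in both lines. At 96 h it had 108, 100.3 and 124 scaled reads in ELF-153 with DAC and 0, 0 and 0.911 untreated, a ratio of 327 with an interval of 58.4 to 12971 (adjusted p = 7.26e-08). UCSD-AML1 had 22.6, 22.5 and 16.5 with DAC and 0, 0 and 0.788 untreated, a ratio of 67.7 with an interval of 11.7 to 2718 (adjusted p = 5.59e-06). At 144 h ELF-153 held 109.7, 148 and 137 with DAC and 0.726, 0 and 0 untreated (a ratio of 414, interval 74.0 to 16407, adjusted p = 3.46e-08), and UCSD-AML1 19.3, 16.6 and 14.6 with DAC and 0 untreated, at least 17.1-fold more (adjusted p = 3.72e-06). The change was larger in ELF-153 by 2.35 ± 0.60 at 96 h (adjusted p = 0.0131) and 2.63 ± 0.54 at 144 h (adjusted p = 0.00489; 0.0571 with the mitochondrial covariate). It was lost at both harvests on recovered reads, where the value at 144 h was 0.80 with edgeR (adjusted p = 0.728) and 1.82 with DESeq2 (adjusted p = 0.439). SYCE1 shares 1277 exon bases with CYP2E1 on the opposite strand, and CYP2E1 averaged 52.6 scaled reads with DAC and 19.7 untreated in ELF-153 at 96 h, and 35.9 with DAC and 2.80 untreated in UCSD-AML1. No label or header says whether strand was used in counting, so reads of the pair cannot be told apart.

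SYCE2, the partner of SYCE1 in the central element, went the other way. In ELF-153 it had 16.1, 6.98 and 9.78 scaled reads with DAC at 96 h and 23.5, 37.9 and 31.9 untreated, and fell by 1.47 ± 0.43 on the log2 scale (SE, adjusted p = 0.0171). That call was lost without untreated replicate 2 (−1.32, adjusted p = 0.0535), without DAC replicate 2 (−1.22, adjusted p = 0.0746) or with the mitochondrial covariate (adjusted p = 0.134). At 144 h it had 6.4, 16.5 and 12.1 with DAC and 42.1, 45.0 and 44.8 untreated, and fell by 1.92 ± 0.43 (adjusted p = 0.00355). UCSD-AML1 had 5.90, 3.37 and 4.86 with DAC and 4.19, 8.25 and 8.67 untreated at 96 h (adjusted p = 0.416). The 144 h libraries had 5.04, 2.62 and 3.38 with DAC and 10.6, 25.9 and 11.9 untreated, and fell by 1.80 ± 0.43 (adjusted p = 0.00475). The 2 partner genes of 1 structure thus changed in opposite directions in ELF-153 at both harvests.

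Of the 4 cohesin genes, REC8, the meiotic kleisin, was present in all libraries. In ELF-153 it had 34.1, 37.5 and 45.0 scaled reads with DAC at 96 h and 12.3, 5.12 and 13.7 untreated, a rise of 1.90 ± 0.33 (SE, adjusted p = 0.000553), and at 144 h 117, 88.1 and 84.6 with DAC and 10.2, 11.8 and 13.9 untreated, a rise of 2.91 ± 0.28 (adjusted p = 3.32e-06). In UCSD-AML1 it had 88.5, 67.4 and 69.0 with DAC at 96 h and 50.3, 40.3 and 47.3 untreated, with no overlap but an adjusted p of 0.112; edgeR and DESeq2 called it higher. At 144 h UCSD-AML1 had 79.8, 79.6 and 144 with DAC and 49.5, 63.3 and 63.2 untreated, a rise of 0.73 ± 0.28 (adjusted p = 0.0465). Same-numbered libraries of UCSD-AML1 at 144 h were correlated, but replicates 1 and 2 could not be told apart by number. With the replicate block the adjusted p was 0.0635. With a filter of 1 it was 0.0632, and over the 6 libraries of the line alone 0.0720. It was 0.149, 0.0750, 0.0570 and 0.205 without untreated replicate 1, 2 or 3 or without DAC replicate 3, the change being 0.61, 0.78, 0.78 and 0.44. The lines differed at 144 h by 2.18 ± 0.39 (adjusted p = 0.00209).

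STAG3, another meiotic cohesin subunit, was tested at 144 h. It had 12.8, 26.6 and 15.4 scaled reads in ELF-153 with DAC and 0, 0 and 1.07 untreated, a ratio of 58.2 with an interval of 10 to 2338 (adjusted p = 4.76e-05). In that DAC group 36.8% of its value lay on ENST00000496157 and 24.4% on ENST00000477469, both annotated as retained introns. Without retained-intron and processed transcripts the gene was under the filter and was not tested. UCSD-AML1 held 0.840, 0 and 1.13 with DAC and 0, 0.959 and 0 untreated. The difference between the lines was 3.52 ± 0.70 (adjusted p = 0.00407), a call lost with edgeR (adjusted p = 0.189) and DESeq2 (adjusted p = 0.0959). At 96 h, under the filter, ELF-153 held 12, 36 and 10 reads with DAC and 1, 1 and 0 untreated. SYCP3, of the lateral element, reached 12 reads at most: 4, 11 and 12 in ELF-153 with DAC at 96 h and 0, 2 and 2 untreated. SYCP1, SYCP2, RAD21L1 and HORMAD1 had at most 4 reads in a library, and SMC1B and HORMAD2 had none in all 24.

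Of the 4 meiotic recombination genes, DMC1 alone was tested. DMC1, the meiosis-specific recombinase that carries out strand exchange, was expressed in untreated ELF-153 and fell with DAC. At 96 h ELF-153 held 9.47, 17.4 and 22.5 scaled reads with DAC and 40.3, 76.8 and 56.5 untreated, and fell by 1.78 ± 0.46 on the log2 scale (SE, adjusted p = 0.00863). At 144 h it held 3.66, 8.26 and 7.69 with DAC and 67.5, 52.1 and 59.8 untreated, and fell by 3.07 ± 0.52 (adjusted p = 0.000457). The groups did not overlap. UCSD-AML1 had 0 reads in all 6 DAC libraries and 0, 1 and 0, then 3, 0 and 0 untreated. The difference in change at 144 h, −2.45 ± 0.74 (adjusted p = 0.0271), sets a fall in ELF-153 beside groups of 3 reads or fewer in UCSD-AML1, and on recovered reads edgeR gave 0.03 (adjusted p = 0.615). It was −3.07 without UCSD-AML1 untreated replicate 1 and was lost without its replicate 2 (−2.13, adjusted p = 0.0705), without ELF-153 untreated replicate 3 (−2.44, adjusted p = 0.0557) or without ELF-153 DAC replicate 1 (−2.13, adjusted p = 0.0607). SPO11, which makes the breaks that DMC1 repairs, had no read. PRDM9, the methyltransferase that places them, had 0, 2 and 4 reads in ELF-153 with DAC at 96 h and none in the other groups. MEI1, needed for break formation in mice, had at most 7 reads in any library.

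Of the 6 other testis-expressed genes TEX19 was tested. TEX19, whose mouse counterparts restrain transposons in germ cells, was present in both lines and parted between them. In ELF-153 it had 166, 159 and 158 scaled reads with DAC at 96 h and 10.1, 15.4 and 22.8 untreated, a rise of 3.31 ± 0.29 (SE, adjusted p = 1.23e-06), and at 144 h 106, 139 and 149 with DAC and 21.8, 13.0 and 23.5 untreated, a rise of 2.72 ± 0.26 (adjusted p = 3.34e-06). In UCSD-AML1 it had 71.8, 115 and 66.0 with DAC at 96 h and 78.6, 64.2 and 66.2 untreated, which overlap (adjusted p = 0.562). Its libraries at 144 h had 40.3, 36.7 and 46.2 with DAC and 94.6, 89.2 and 76.3 untreated, and fell by 1.06 ± 0.26 (adjusted p = 0.00518). The difference was 3.08 ± 0.41 at 96 h (adjusted p = 0.000215) and 3.78 ± 0.37 at 144 h (adjusted p = 2.59e-05). TEX15, which acts with the piRNA pathway in mice, had 1, 23 and 3 reads in ELF-153 with DAC at 96 h and none untreated, so that 1 library held most of them. STK31, TEX11 and TEX101 had at most 2 reads in a library, and TEX14 had none.

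In all, 25 of the 42 genes were under the filter at both harvests. Of these, 5 had no read in any of the 24 libraries (TDRD5, SMC1B, HORMAD2, SPO11 and TEX14), 18 had reads but fewer than 10 in every library, and SYCP3 and TEX15 reached 12 and 23. Summed over the 25, ELF-153 held 127 reads with DAC and 16 untreated at 96 h, and 86 with DAC and 13 untreated at 144 h; UCSD-AML1 held 49 with DAC and 27 untreated at 96 h, then 34 with DAC and 18 untreated. Reads were found for 17 of the 25 with DAC and 4 untreated in ELF-153 at 96 h, and for 10 with DAC and 6 untreated in UCSD-AML1. No test was made on these sums. Silence here is limited by what the tables count. Transcripts with no exon base of their own held 0.283% of the value at 96 h and those with 200 or more 97.6%, so mainly reads on bases of a single transcript were counted. The 5 genes without reads have 87 to 688 such bases (median 525) and the 17 tested genes 705 to 5595 (median 1819).

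**Figure D5:**
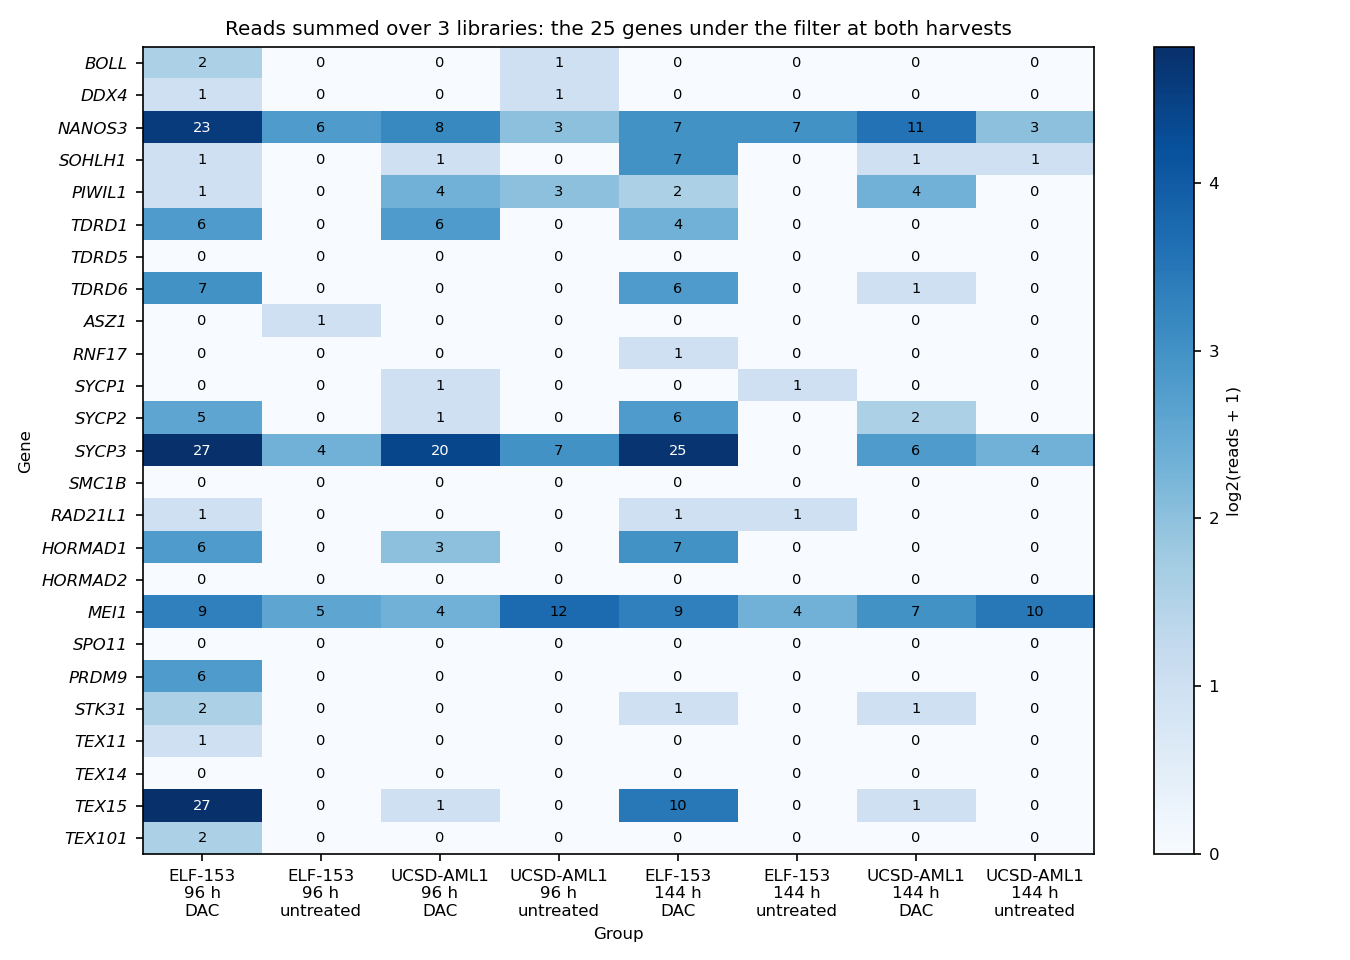
Recovered reads summed over the 3 libraries of a group (numbers in the cells, colour as log2(reads + 1)) for the 25 genes under the filter at both harvests (rows) in the 8 groups (columns, DAC left of untreated). Most cells are 0, and the highest, 27, are SYCP3 and TEX15 in ELF-153 with DAC at 96 h.

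Counted as present where all 3 libraries of a group held 10 scaled reads or more, 12 of the 42 genes were present in ELF-153 with DAC and 4 in untreated ELF-153 at 96 h, and 13 and 5 at 144 h. In UCSD-AML1 9 were present with DAC and 7 untreated at 96 h, and 8 and 8 at 144 h. The share of all rows present by this measure was not counted, so the counts only describe these genes. The equal counts in UCSD-AML1 at 144 h were of different genes: DAZL, TDRD12 and SYCE1 were present with DAC only, and SOHLH2, GTSF1 and SYCE2 untreated only. To compare levels between genes, mean scaled reads were divided by the kilobases of exon that belong to 1 transcript. These kilobases were summed over all transcripts of a gene, also those with few reads, so levels and their order depend on that choice. In ELF-153 with DAC at 96 h, 730 of 741 scaled reads of DAZL fell to a transcript with 297 of its 878 such bases. For PIWIL4 it was 97.5 of 105 on 371 of 1047 bases, and for MAEL 32.3 of 35.7 on 93 of 1248. In ELF-153 with DAC at 96 h, DAZL stood at 844 per kb, TDRD9 at 375, PLD6 at 235, TDRD12 at 123 and PIWIL4 at 100.4, while PIWIL2 stood at 15.7 and MOV10L1 at 4.75. In UCSD-AML1 with DAC at 96 h TDRD9 stood at 562 per kb, PLD6 at 192, DAZL at 158, TDRKH at 59.9, REC8 at 43.9, TEX19 at 43.5 and GTSF1 at 34.2, and TDRD12 lower, at 11.6. No test was made between neighbours in these orders.

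Without DAC the lines already differed. At 96 h, 5 of the 16 tested genes were higher in untreated ELF-153 than in untreated UCSD-AML1 and 7 lower (22.8% and 34.7% of all rows), and at 144 h 3 were higher and 6 lower (28.9% and 22.9%). PLD6 (0.99 ± 0.17, adjusted p = 0.000262, and 1.76 ± 0.17, adjusted p = 2.05e-06), SYCE2 (2.03 ± 0.43, adjusted p = 0.00114, and 1.5 ± 0.43, adjusted p = 0.0115) and DMC1 were higher in ELF-153 at both harvests. DMC1 had 173 reads in untreated ELF-153 and 1 in untreated UCSD-AML1 at 96 h, a ratio of 193 with an interval of 34.2 to 7676 (adjusted p = 2.59e-07), and 193 and 3 at 144 h, a ratio of 61.4 (interval 20.7 to 300.1, adjusted p = 2.68e-06). These 3 genes fell with DAC in ELF-153 at both harvests. SOHLH2, TDRD9, TDRKH, GTSF1, REC8 and TEX19 were lower in untreated ELF-153 at both harvests. TDRD9 had 0 reads in ELF-153 and 508 in UCSD-AML1 at 96 h, at least 152-fold fewer (adjusted p = 2.98e-12), and GTSF1 had 1 and 240, a ratio of 0.00465 with an interval of 0.000117 to 0.0262 (adjusted p = 3.38e-08). Several of these calls rest on single libraries. At 96 h PIWIL4 was lost without ELF-153 untreated replicate 2 (1.60, adjusted p = 0.0897) or 3 (1.60, adjusted p = 0.0973), and was 3.20 without replicate 1, which held no read. TDRD12, a ratio of 3.35 with an interval of 0.599 to 33.9, was lost without ELF-153 untreated replicate 1 or 3 or UCSD-AML1 untreated replicate 1, with adjusted p of 0.0749, 0.112 and 0.137. MOV10L1 was lost without ELF-153 untreated replicate 3 (−1.56, adjusted p = 0.0527) or UCSD-AML1 untreated replicate 3 (−0.99, adjusted p = 0.137). At 144 h SOHLH2 was lost without UCSD-AML1 untreated replicate 1 (−1.79, adjusted p = 0.0562) or ELF-153 untreated replicate 2 (−1.43, adjusted p = 0.0609) and was −2.68 without ELF-153 untreated replicate 1. SYCE2 was lost without UCSD-AML1 untreated replicate 1 (1.27, adjusted p = 0.0522), and the fitted difference of DMC1, 5.30, was 5.92 without that library. The mitochondrial ribosomal RNA share also differs between the untreated lines. With it as a covariate SOHLH2, SYCE2, PLD6, TDRKH, TDRD12 and MOV10L1 at 96 h and SOHLH2 and TDRKH at 144 h did not pass.

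Other genes of the same pathways were counted from lists made with earlier results of these data known. Counts of these lists stand beside 20.1% higher and 12.7% lower of all rows in ELF-153 and 19.7% and 19.6% in UCSD-AML1 at 96 h, and 20.4% and 18% in ELF-153 and 20% and 26.2% in UCSD-AML1 at 144 h. With so few genes tested per list, several counts lie near these shares. Of 22 further piRNA genes 8 were tested at 96 h: 4 rose and none fell with DAC in ELF-153, and 1 rose and 3 fell in UCSD-AML1; at 144 h, of 7, 3 rose in ELF-153 and 2 fell in UCSD-AML1. The median change with low genes at their bound was 1.55 in ELF-153 and −0.46 in UCSD-AML1 at 96 h, and 1.5 and −0.42 at 144 h. HENMT1, the methyltransferase of piRNA 3′ ends, averaged 16.1 ± 0.469 scaled reads with DAC and 0 untreated in ELF-153 at 96 h (SD, n = 3), at least 15.9-fold more (adjusted p = 8.47e-06). TDRD7, of the Tudor family, averaged 110.2 ± 35.5 with DAC and 35.8 ± 3.69 untreated in ELF-153 at 96 h, a rise of 1.55 ± 0.25 (SE, adjusted p = 0.000316). Of 38 further meiosis genes 13 were tested at 96 h: 3 rose and 3 fell in ELF-153, and none rose and 3 fell in UCSD-AML1; at 144 h, of 14, 2 rose and 2 fell, and 1 rose and 4 fell. Their median with low genes at their bound was −0.51 and −0.29 at 96 h, and 0.06 and −0.38 at 144 h. STRA8, the retinoic acid target that starts meiosis, averaged 36.0 ± 8.36 scaled reads with DAC and 0 untreated in ELF-153 at 96 h, at least 35.9-fold more (adjusted p = 1.45e-06), and 44.1 ± 12.5 with DAC and 0 untreated at 144 h, at least 45.6-fold more (adjusted p = 1.45e-07). TRIP13, a meiosis gene that dividing somatic cells also use, fell in both lines at both harvests. At 96 h it averaged 255 ± 9.96 with DAC and 822 ± 97.1 untreated in ELF-153, a change of −1.68 ± 0.16 (adjusted p = 2.23e-06), and 49.2 ± 3.14 with DAC and 533 ± 19.4 untreated in UCSD-AML1, a change of −3.41 ± 0.16 (adjusted p = 6.38e-09). Of 34 further germ-cell genes 5 were tested at each harvest, and 3 rose in ELF-153 at each; in UCSD-AML1 1 rose and 1 fell, then 1 rose. Their median was 1.44 and 0.21 at 96 h, and 1.94 and 0.26 at 144 h. DND1, an RNA-binding protein of primordial germ cells, averaged 62.7 ± 10.7 with DAC and 9.97 ± 10.9 untreated in ELF-153 at 96 h, a rise of 3.03 ± 0.54 (adjusted p = 0.000710).

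Of 14 genes of complexes that keep germ-line promoters silent, set beside the same shares of all rows, 11 were tested at each harvest: 1 rose and 2 fell in ELF-153 and 1 rose and 4 fell in UCSD-AML1 at 96 h, then 2 rose and 4 fell, and 1 rose and 4 fell. The medians were −0.09 and −0.41 at 96 h, and 0.22 and −0.54 at 144 h. DNMT1, the maintenance DNA methyltransferase, averaged 176 ± 15 scaled reads with DAC and 427 ± 48.4 untreated in ELF-153 at 96 h, and fell by 1.27 ± 0.19 on the log2 scale (SE, adjusted p = 0.000135); in UCSD-AML1 it averaged 110.1 ± 21.1 with DAC and 238 ± 15.3 untreated, and fell by 1.12 ± 0.19 (adjusted p = 0.000327). MAX, the partner of MGA at the E-box, rose in both lines at both harvests, in ELF-153 at 96 h to 441 ± 6.27 with DAC, against 184 ± 28.9 untreated (1.27 ± 0.16, adjusted p = 4.26e-05).

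The libraries held 13148881 to 28528757 assigned reads. Of 9 blood and leukaemia markers 8 or 9 averaged 10 scaled reads or more in every group. At 96 h 1 rose and 2 fell in ELF-153, and 1 rose and 3 fell in UCSD-AML1. At 144 h 1 rose and 2 fell, and none rose and 6 fell, beside the shares of all rows given above. CD33 fell in both lines at both harvests, in ELF-153 at 96 h to 225 ± 6.63 from 507 ± 91.1 untreated (SD, n = 3). MECOM averaged 1.63 in untreated ELF-153 and 4002 in untreated UCSD-AML1 at 96 h. Of 8 markers of testis somatic cells, FSHR was at 0 in all groups and HSD3B2 at 0 in 7 of 8; their summed level was 151 to 205 with DAC and 441 to 656 untreated in ELF-153 at 96 h, and 186 to 238 with DAC and 94.4 to 114 untreated in UCSD-AML1. In that sum AMH fell in ELF-153, with 147 ± 23.2 with DAC and 535 ± 103 untreated at 96 h, while INHA rose, with 17.9 ± 6.80 with DAC and 0.645 ± 0.562 untreated in ELF-153 and 116 ± 39.7 with DAC and 1.44 ± 1.38 untreated in UCSD-AML1. STAR also rose in both lines at 96 h (adjusted p = 0.00872 in ELF-153 and 0.00245 in UCSD-AML1). Of 7 markers of T and B cells 4 were tested at 96 h: 2 rose and 1 fell in ELF-153, and 3 rose and 1 fell in UCSD-AML1. CD2 averaged 134 ± 30.2 scaled reads with DAC and 7.91 ± 2.85 untreated in ELF-153, and 827 ± 181 with DAC and 39.2 ± 0.911 untreated in UCSD-AML1; MS4A1 was at 0 in every group. The summed level of the T and B cell markers at 96 h was 467 to 556 with DAC and 251 to 317 untreated in ELF-153, and 763 to 1144 with DAC and 319 to 345 untreated in UCSD-AML1. Of 8 epithelial and fibroblast markers EPCAM was at 0 in every group, and of 2 tested at 96 h none was called in ELF-153 and KRT8 rose in UCSD-AML1, with 164 ± 15.1 with DAC and 63.6 ± 8.55 untreated. Their summed level at 96 h was 84.6 to 105 with DAC and 75.8 to 138 untreated in ELF-153, and 287 to 350 with DAC and 205 to 229 untreated in UCSD-AML1. The part of these markers in the results was not tested. Mitochondrial ribosomal RNA took 43.4 ± 6.25% of reads with DAC and 25.2 ± 11.1% untreated in ELF-153 at 96 h (SD, n = 3), and 62.8 ± 1.05% with DAC and 50.1 ± 1.06% untreated in UCSD-AML1. The share at 144 h was 47.0 ± 5.81% with DAC and 24.3 ± 12.1% untreated in ELF-153, and 51.2 ± 10.8% with DAC and 49.4 ± 4.25% untreated in UCSD-AML1. Beyond the covariate fits quoted, its part in the results was not tested. With TMM rescaling in place of the deposited scaling, the median log2 change of all rows in UCSD-AML1 at 144 h was 0.05 in place of −0.12, and 53.71% in place of 43.29% of all called rows were higher. The share of higher calls was 53.79% in place of 65.55% for the line difference at 96 h, 51.86% in place of 65.61% at 144 h, and 50.25% in place of 39.73% between untreated lines at 96 h. No call of the 42 genes was lost or reversed with TMM. Other tested genes also share exon bases with neighbours, among them STAG3 with PVRIG (561 bases) and PIWIL4 with FUT4 (533), on the same strand, and TDRKH with TDRKH-AS1 (436), SYCE2 with GCDH (189) and PLD6 with MPRIP (176), on the opposite strand. How reads there were assigned is not stated. In ELF-153 at 96 h FUT4 averaged 817 scaled reads with DAC and 954 untreated, where PIWIL4 rose, and PVRIG was at 0 in both groups. GCDH averaged 56.2 with DAC and 129 untreated and MPRIP 3119 with DAC and 4422 untreated, and SYCE2 and PLD6 fell there. TDRKH-AS1 averaged 8.75 with DAC and 2.27 untreated where TDRKH rose. STAG3 also shares 218 exon bases with CASTOR3 on the opposite strand. CASTOR3 averaged 177 scaled reads with DAC and 120 untreated in ELF-153 at 144 h, where STAG3 rose. The part of these neighbours in the results was not tested.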

How the data were processed

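RNA was sequenced as paired-end, stranded total RNA after ribosomal RNA depletion, per the labels. The authors deposited 2 tables of 204940 Ensembl transcripts by 12 libraries, 1 per harvest, with values of the kind signal: reads per transcript divided by a size factor per library. Reads were placed on hg19; the tools listed, per the submitters' processing notes and without roles or versions, are DESeq2, HTSeq, STAR, TopHat2 and FastQC. In every library 100% of the deposited values were whole multiples of 1 step (tolerance 0.01), which returned the reads. Libraries held 13148881 to 28528757 reads. A table of repeat elements for 96 h was not used here.

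Transcripts were matched to genes with GENCODE 29 (181859 of 204940; 23081 stayed as rows of their own) and summed. Comparisons were tested with limma 3.58.1 (R 4.3.3) on log2(scaled reads + 1) with 1 mean per group over the 12 libraries of a harvest, trend and robust, for rows with 10 or more in at least 3 libraries (18799 at 96 h, 18293 at 144 h), with Benjamini-Hochberg adjustment over all rows and a threshold of 0.05. Tables were normalised separately, so no test crosses harvests. It was tested on simulated data first. Alternatives were edgeR 4.0.16 and DESeq2 1.42.0 on recovered reads, TMM, pseudocounts of 0.5 and 8, a filter of 1, the 6 libraries of a line, the mitochondrial ribosomal RNA share as covariate, sums without retained-intron and processed transcripts, a replicate block, and each library left out. Bounds use a floor of 3 reads over a group, ratios an exact 95% interval.

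No 2 replicates were the same library: chi-square per degree of freedom between replicate pairs was 3.79 to 234. Same-numbered DAC and untreated libraries deviated together, with every correlation over 0.1, only in UCSD-AML1 at 144 h (0.129, 0.118 and 0.257), and only there do the numbers count as pairs. Every gene called in a DAC effect or in the difference between lines is given with its libraries, the others by reads, and up to 4 genes of smallest adjusted p may be named per further list. The members and lists were chosen with earlier results of these data known.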

Additional observations from a re-analysis of the deposited data

Results flagged for a closer look

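The change with DAC differed between ELF-153 and UCSD-AML1 for 24 gene and harvest pairs, by limma's test of the difference itself (ELF-153 change minus UCSD-AML1 change, log2, Benjamini-Hochberg adjusted over all rows). At 96 h the difference was 6.69 for TDRD9, 3.90 for GTSF1, 3.74 for PIWIL4, 3.41 for SOHLH2, 3.28 for MAEL, 3.08 for TEX19, 2.47 for TDRD12, 2.43 for DAZL, 2.35 for SYCE1 and −0.70 for PLD6. At 144 h it was 6.49 for TDRD9, 4.66 for GTSF1, 4.17 for PIWIL4, 4.00 for SOHLH2, 3.78 for TEX19, 3.62 for PIWIL2, 3.52 for STAG3, 2.75 for MAEL, 2.63 for SYCE1, 2.38 for TDRKH, 2.33 for DAZL, 2.18 for REC8, −1.35 for PLD6 and −2.45 for DMC1. Of these, GTSF1 was called in opposite directions in the 2 lines at both harvests, and TEX19 at 144 h. Where a gene had no read without DAC in both lines, as DAZL did, the untreated values cancel and the difference is that between the DAC libraries of the lines. It then depends on the pseudocount only where DAC libraries held few reads. PIWIL4 and MAEL at 96 h, and PIWIL2, PIWIL4, MAEL and STAG3 at 144 h, passed the filter only through DAC libraries of ELF-153.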

How the results depend on the processing

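There were 94 calls of single genes over the 8 comparisons. TMM kept 94 of 94, pseudocounts of 0.5 and 8 kept 91 and 90, a filter of 1 kept 92, sums without retained-intron and processed transcripts 86 of 88, the 6 libraries of a line 48 of 49, edgeR 81, DESeq2 82 and the mitochondrial covariate 75, with the direction kept and the threshold passed. A call for which a tool gave no adjusted p counted as kept if its direction held. Calls of genes under the filter in the sums without retained-intron and processed transcripts, STAG3 among them, were left out, so 88 stood there. The direction turned for DMC1 in the difference between lines at 144 h with edgeR (0.027) and for SOHLH2 between untreated lines at 144 h with the covariate (0.050). The cause was not tested. Leaving out 1 library ended 47 of 708 calls and turned none.

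With the replicate block 93 of 94 calls were kept; REC8 in UCSD-AML1 at 144 h (0.73, adjusted p = 0.0635) was lost, and no other call changed. Same-numbered libraries were all correlated over 0.1 only there, where the numbers did not tell replicates 1 and 2 apart.

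Counts of genes called moved as follows. For the difference between lines at 96 h, 9 higher became 4 with edgeR and 4 with DESeq2, and 1 lower became 2 with a pseudocount of 8, 0 with a filter of 1, 0 without retained-intron and processed transcripts, and 0 to 1 with single libraries left out. At 144 h, 12 higher became 6 with edgeR and 7 with DESeq2, and 2 lower became 1 with edgeR, DESeq2, a pseudocount of 0.5 or the covariate, and 1 to 2 with single libraries left out. With the covariate, 3 lower in ELF-153 at 96 h became 1, and between untreated lines at 96 h 5 higher became 2 and 7 lower became 4. With single libraries left out, 1 lower in UCSD-AML1 at 96 h became 1 to 2, 5 higher between untreated lines at 96 h 3 to 5, and 3 higher at 144 h 3 to 5.

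For the 25 genes under the filter, a group with 0 reads allows up to 3.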

Other observations

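The 2 transcripts of TDRD12 that carried its reads, ENST00000564769, annotated as a target of nonsense-mediated decay, and the coding ENST00000444215, held like shares in both lines with DAC at 96 h: 54.8% and 45.1% in ELF-153, 53.3% and 46.7% in UCSD-AML1. At 144 h they held 54.6% and 45.2% in ELF-153 and 62.8% and 37.2% in UCSD-AML1. Reads of SYCE1 were split between the coding ENST00000343131 and ENST00000479535, annotated as a retained intron, 46.1% and 53.9% in ELF-153 with DAC at 96 h and 56.5% and 43.5% in UCSD-AML1. MOV10L1 reads at 96 h with DAC lay mainly on ENST00000419054, annotated as a target of nonsense-mediated decay, in ELF-153 (65.6%). In UCSD-AML1 they lay mainly on the coding ENST00000354853 (76.3%), which held 16.1% in ELF-153. Of TDRKH reads, 62.4% to 91.9% lay on ENST00000525790, annotated as a target of nonsense-mediated decay. Of REC8 reads in ELF-153 with DAC, 48.6% at 96 h and 53.5% at 144 h lay on ENST00000559797, annotated as a target of non-stop decay. ENST00000558381, annotated as a retained intron, held 23.4% and 27.3%. These shares reflect the bases that belong to 1 transcript and were not tested between groups.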
